A study of Mus musculus with 8 samples.

Results

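The insulin-like growth factor (IGF) genes examined in these iOLs (induced immature oligodendrocytes) were the ligands Igf1 and Igf2, the receptors Igf1r and Insr, the adaptors Irs1 and Irs2 and the binding proteins Igfbp2, Igfbp3, Igfbp4 and Igfbp5. These 10 genes were taken by symbol from the 24346 genes of the deposited expression table, and all 10 were found. RNA-seq covered 8 libraries, 4 labelled WT, called Med23+/+ here, and 4 labelled MED23KO, called Med23-/- here. They were made to ask how loss of the Mediator subunit Med23 changes expression early in differentiation. In both groups, primary OPCs (oligodendrocyte precursor cells) from mouse brain, immunopanned with an antibody to CD140a (the PDGF receptor alpha) in the first week after birth, were expanded with PDGF-AA and NT-3. They were then kept for 1 day with 15 nM T3 (triiodothyronine, an active thyroid hormone) and 10 ng/mL CNTF (ciliary neurotrophic factor), which start differentiation. The Med23-/- cells came from Med23 fl/fl mice carrying Olig1-Cre, so deletion was driven from the Olig1 gene in the oligodendrocyte lineage. The paper gives the controls of this cross as Med23 fl/fl littermates, listed without Cre, so Med23+/+ here does not mean unfloxed alleles. Cre thus differs between the groups together with Med23, and their effects cannot be told apart. The number of pups behind each library was not given in the sources used here, and the labels do not say that replicates were separate cultures, so the p-values measure the spread between these libraries, which may be technical.

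IGF1 and IGF2 bind the tyrosine kinase receptor IGF1R and, with different affinities, the insulin receptor. The activated receptors phosphorylate the adaptors IRS1 and IRS2, which recruit PI3 kinase and so activate AKT and mTOR. Secreted IGF binding proteins hold the ligands outside the cell and can limit or prolong their access to the receptors. In the oligodendrocyte lineage, IGF signalling is known for promoting precursor survival, proliferation and myelin formation.

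Values are FPKM (fragment counts scaled by transcript length and by library size), which are per transcript length, so levels of different genes can be set side by side. The 12328 genes averaging 1 FPKM or more across the 8 libraries were compared on the log2(FPKM + 1) scale with limma, and adjusted p means the Benjamini-Hochberg value over all of them. Log2 fold changes are Med23-/- minus Med23+/+, and they understate the change of weakly expressed genes. Med23 itself had between 12.2 and 12.7 FPKM in the Med23+/+ libraries and between 7.93 and 8.49 FPKM in the Med23-/- libraries (log2 fold change -0.55, adjusted p = 0.000353). The deleted gene was thus lower in every Med23-/- library, although its transcript was still measured there. The paper assessed the deletion by western blot of primary OPCs and reports it as efficient, which concerns protein. FPKM of the whole gene does not tell whether the remaining transcripts hold the deleted part.

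All 4 binding protein genes and the receptor gene Igf1r were higher in Med23-/- iOLs, whereas the adaptor gene Irs1 was lower. Insr and Irs2 did not pass the test, and the ligand genes were barely expressed in either genotype. Of the 10 genes, 8 reached that level and were tested. By adjusted p under 0.05, 5 of the 8 rose, where 15.9% of all genes tested rose, and 1 of the 8 fell, where 14.1% of all genes fell. With a fold change above 2 as well, 4 of the 8 were higher, against 2.98% of all genes, and 1 of the 8 was lower, against 1.75%. The 6 genes that passed also had genotypes whose libraries did not overlap, 5 of them higher (16.3% of all genes tested) and 1 lower (15.3%). The median log2 fold change was 0.81 over the 8 genes and -0.01 over all genes tested.

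**Figure D1:**
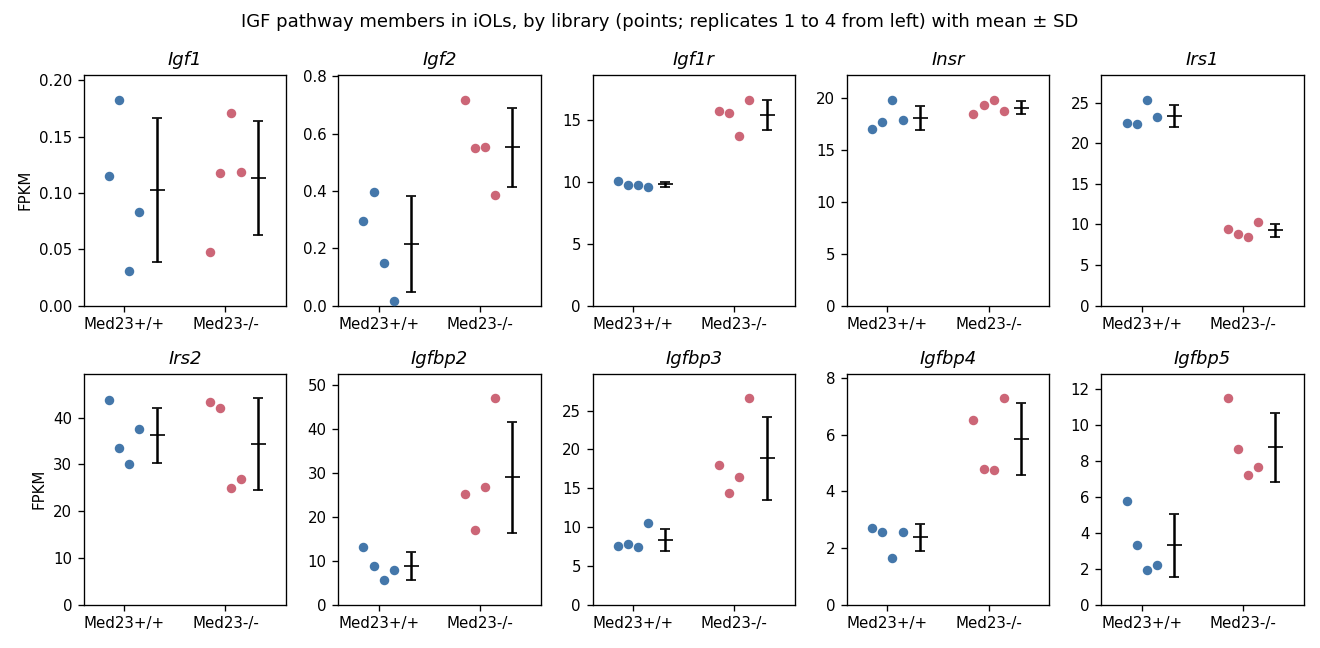
FPKM of each of the 10 genes in each library (points, replicates 1 to 4 from left to right) with the mean ± SD of the 4 libraries per genotype, on linear axes that start at 0. The 4 binding protein genes and Igf1r lie higher in every Med23-/- library, Irs1 lies lower in every one, and Igf1, Igf2, Insr and Irs2 overlap.

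The ligand genes were near the lower end of the measured range. Igf1 (chromosome 10, 87858265 to 87937042 in mm10, the build of all gene positions given), which encodes the main IGF of postnatal tissues, had 0.115, 0.183, 0.0306 and 0.0829 FPKM in Med23+/+ replicates 1 to 4, the order used throughout. Its Med23-/- libraries had 0.0473, 0.118, 0.171 and 0.118 FPKM. The genotypes overlapped over nearly their whole ranges (two-sided exact permutation test, p = 0.743), and at this level a difference was not detectable.

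Igf2 (chromosome 7, 142650766 to 142666816), an imprinted gene for the IGF of fetal growth, had 0.295, 0.398, 0.149 and 0.0177 FPKM in Med23+/+ and 0.719, 0.551, 0.553 and 0.385 FPKM in Med23-/- libraries. The mean was 0.215 ± 0.166 against 0.552 ± 0.137 FPKM (SD, n = 4 each), and the genotypes overlapped only because Med23+/+ replicate 2 was above Med23-/- replicate 4 (two-sided exact permutation test, p = 0.0571). The smallest p that 4 libraries against 4 allow is 0.0286. When all genes above 0 in at least 1 library were tested, Igf2 passed with a limma adjusted p of 0.043, so its call depends on the filter. The Igf2 locus also holds Gm49394 and Mir483 on the same strand, so reads there may be shared.

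The binding protein genes rose together, by 2.27 to 3.29 times in mean FPKM. Igfbp2, whose product is a major IGF binding protein of the developing brain, had the largest rise in mean FPKM, though this order was not tested. Igfbp2 (chromosome 1, 72824503 to 72852474) had 13.0, 8.77, 5.56 and 7.84 FPKM in Med23+/+ and 25.1, 17.0, 26.7 and 46.9 FPKM in Med23-/- libraries. Every Med23-/- library was above every Med23+/+ library, and Med23-/- replicate 4 stood above the other libraries. The log2 fold change was 1.57 (standard error 0.29, 95% confidence interval 0.92 to 2.23, adjusted p = 0.0035). It was 0.89 within replicates 1 and 2, below Igfbp3 (0.99) and Igfbp5 (1.02) there, and 2.26 within replicates 3 and 4. The difference between the values of Igfbp2 was not tested.

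Igfbp5 (chromosome 1, 72857932 to 72874884), which encodes a binding protein that also binds extracellular matrix, lies 5457 bases from Igfbp2 in the opposite orientation. It had 5.77, 3.33, 1.92 and 2.18 FPKM in Med23+/+ and 11.5, 8.64, 7.24 and 7.65 FPKM in Med23-/- libraries. Replicate 1 was the highest in both genotypes, and the genotypes did not overlap. Its log2 fold change was 1.24 (standard error 0.25, 95% confidence interval 0.69 to 1.80, adjusted p = 0.00507).

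The 250 bases before the RefSeq start sites of these neighbouring genes are shown so that neighbouring genes that rose can be read side by side, with their GC boxes, the GGGCGG letters that Sp1, the factor this study examined, is known to bind. Capitals mark GGGCGG on either strand. Igfbp2 is read from the plus strand (GRCm38.p6, the mm10 assembly, chr1:72824230-72824479) and Igfbp5 from the minus strand (chr1:72874866-72875115), 5′ to 3′.
Igfbp2: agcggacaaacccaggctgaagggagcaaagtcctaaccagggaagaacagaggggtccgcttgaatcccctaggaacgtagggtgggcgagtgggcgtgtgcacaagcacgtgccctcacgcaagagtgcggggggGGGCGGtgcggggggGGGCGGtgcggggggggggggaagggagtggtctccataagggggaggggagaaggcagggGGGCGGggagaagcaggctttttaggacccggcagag
Igfbp5: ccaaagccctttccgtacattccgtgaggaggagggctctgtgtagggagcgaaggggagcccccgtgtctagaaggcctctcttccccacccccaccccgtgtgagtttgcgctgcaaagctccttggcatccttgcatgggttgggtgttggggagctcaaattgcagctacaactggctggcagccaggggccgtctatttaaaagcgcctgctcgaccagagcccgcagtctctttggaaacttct
The Igfbp2 sequence, before the first of its 2 listed start sites, holds 3 GC boxes, which start 113, 98 and 37 bases before the start site, while the sequence before the other Igfbp2 start site and the Igfbp5 sequence hold 0.

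Igfbp3 (chromosome 11, 7206086 to 7213923), which encodes the main carrier of IGFs in blood, had 7.50, 7.78, 7.43 and 10.5 FPKM in Med23+/+ and 18.0, 14.4, 16.4 and 26.6 FPKM in Med23-/- libraries. Replicate 4 was the highest in both genotypes, and the lowest Med23-/- library was above the highest Med23+/+ library. In log2 terms the change was 1.07 (standard error 0.18, 95% confidence interval 0.68 to 1.47, adjusted p = 0.00179).

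Igfbp4 (chromosome 11, 99041244 to 99054392), which encodes a binding protein that is cleaved by the protease Pappa, was the lowest of the 4. It had 2.71, 2.57, 1.65 and 2.55 FPKM in Med23+/+ and 6.53, 4.78, 4.76 and 7.28 FPKM in Med23-/- libraries, with no overlap. The change was 1.02 on the log2 scale (standard error 0.16, 95% confidence interval 0.66 to 1.37, adjusted p = 0.00134). Igfbp3 and Igfbp4 lay close to the fold change limit on the log2(FPKM + 1) scale. With 0.1 added in place of 1, their log2 fold changes were 1.15 and 1.27. With 1 added and without Med23-/- replicate 4, they were 0.90 and 0.92. In that fit 2 in place of 4 binding protein genes passed the limit, while all 4 still passed by adjusted p.

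Summed over the 4 genes, binding protein transcripts had 29.0, 22.5, 16.6 and 23.0 FPKM in Med23+/+ and 61.1, 44.8, 55.1 and 88.4 FPKM in Med23-/- libraries. The lowest Med23-/- sum was above the highest Med23+/+ sum. Igfbp2 and Igfbp3 made up most of the sum in each genotype. Igfbp2 held 37.9% ± 5.26 of it in Med23+/+ iOLs, against 45.1% ± 6.85 with Med23 deleted, and Igfbp3 held 37.7% ± 9.31 and 30.4% ± 1.14 (SD, n = 4 each). The shares of the genotypes overlapped for each of the 4 genes.

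**Figure D2:**
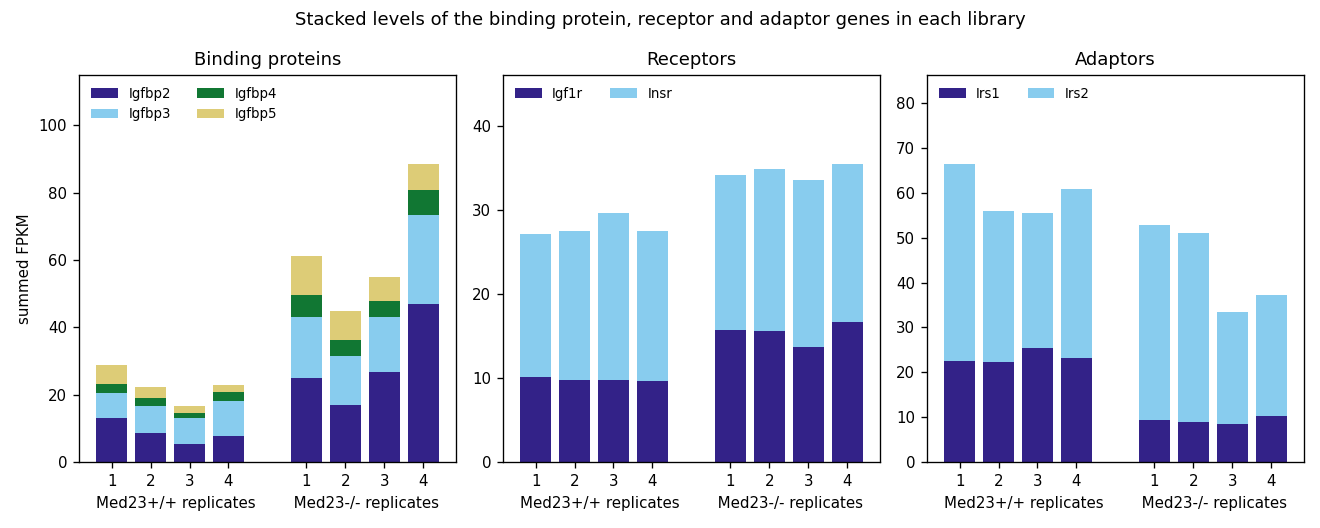
Stacked bars of FPKM in each library (x axis, replicates 1 to 4 of each genotype) for the binding protein genes, the receptor genes and the adaptor genes, each on its own axis from 0. The binding protein bars run from 16.6 to 29.0 FPKM in Med23+/+ and from 44.8 to 88.4 FPKM in Med23-/- libraries, the Igf1r part of the receptor bars is taller in every Med23-/- library, and the Irs1 part of the adaptor bars is shorter in every one.

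Of the receptor genes, Igf1r rose and Insr did not pass the test. Igf1r (chromosome 7, 67952827 to 68233668), the gene for the main IGF receptor, had 10.1, 9.78, 9.81 and 9.63 FPKM in Med23+/+ and 15.7, 15.6, 13.7 and 16.7 FPKM in Med23-/- libraries. The Med23+/+ libraries lay close together, and every Med23-/- library was above them. The mean rose 1.57 times, with a log2 fold change of 0.60 (standard error 0.08, 95% confidence interval 0.42 to 0.77, adjusted p = 0.000496).

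Insr (chromosome 8, 3122061 to 3279617), the insulin receptor gene, had 17.0, 17.7, 19.8 and 17.9 FPKM in Med23+/+ and 18.4, 19.3, 19.8 and 18.7 FPKM in Med23-/- libraries. The ranges overlapped, and the 95% confidence interval of its log2 fold change ran from -0.09 to 0.24 (adjusted p = 0.473). Igf1r was 35.3% ± 1.71 of the summed receptor FPKM in Med23+/+ iOLs, against 44.7% ± 2.72 with Med23 deleted (SD, n = 4 each). These shares did not overlap, and Insr was the higher of the pair in all 8 libraries.

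The adaptor genes differed from each other in their response. Irs1 (chromosome 1, 82233101 to 82291416) had 22.5, 22.3, 25.4 and 23.2 FPKM in Med23+/+ and 9.45, 8.88, 8.51 and 10.3 FPKM in Med23-/- libraries. The libraries of each genotype lay close together and far from those of the other, and the mean in Med23-/- was 0.397 times that in Med23+/+ iOLs. The log2 fold change was -1.25 (standard error 0.08, 95% confidence interval -1.43 to -1.06, adjusted p = 1.96e-05), the lowest adjusted p of the 8 genes tested.

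Irs2 (chromosome 8, 10984681 to 11008458), which encodes the other widely expressed adaptor, had 43.8, 33.5, 30.1 and 37.6 FPKM in Med23+/+ and 43.4, 42.1, 24.9 and 26.9 FPKM in Med23-/- libraries. Med23-/- replicates 1 and 2 were near the top of the range and replicates 3 and 4 were below all other libraries. The log2 fold change was -0.11 (95% confidence interval -0.53 to 0.32, adjusted p = 0.721), an interval that leaves room for changes in either direction. It was 0.15 within replicates 1 and 2 and -0.37 within replicates 3 and 4, a difference that was not tested. Irs1 made up 39.5% ± 4.88 of the summed adaptor FPKM in Med23+/+ iOLs, against 22.1% ± 5.21 with Med23 deleted (SD, n = 4 each). The lowest Med23+/+ share was 33.9% and the highest Med23-/- share 27.6%, so the shares did not overlap.

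The sequences before the start sites of Irs1, the member that fell, and Igf1r, the receptor gene that rose, are shown in the same way. These pairs of genes were picked with their values known, and whether GC boxes bear on the changes was not tested. Each is 250 bases, 5′ to 3′, with capitals for GGGCGG on either strand, Irs1 from the minus strand (GRCm38.p6, chr1:82291440-82291689) and Igf1r from the plus strand (chr7:67952007-67952256).
Irs1: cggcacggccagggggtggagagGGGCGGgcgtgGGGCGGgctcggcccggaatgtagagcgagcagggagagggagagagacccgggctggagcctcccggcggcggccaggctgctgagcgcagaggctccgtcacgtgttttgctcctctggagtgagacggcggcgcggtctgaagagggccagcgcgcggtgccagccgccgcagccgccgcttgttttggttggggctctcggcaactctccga
Igf1r: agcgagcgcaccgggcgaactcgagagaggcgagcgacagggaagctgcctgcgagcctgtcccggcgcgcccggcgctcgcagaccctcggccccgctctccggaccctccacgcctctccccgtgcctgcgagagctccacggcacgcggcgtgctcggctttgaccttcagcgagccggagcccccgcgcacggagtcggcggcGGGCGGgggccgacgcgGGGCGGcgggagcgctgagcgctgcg
Both hold 2 GC boxes, which start 227 and 216 bases before the start site of Irs1 and 43 and 26 bases before that of Igf1r. The RefSeq promoter table held 13 start sites of 9 of the 10 genes, the exception being Insr. GC boxes were found in the 250 bases before 6 of these 13 start sites (46.2%), against 32.7% of all 32851 promoters in the table and 58.5% of the promoters of the genes tested. The 13 include start sites of Igf1 and Igf2, which were not among the genes tested, so the last share is of an unlike set. Start sites 3 and 4 of Igf2 held GC boxes. Irs2 had 1 GC box, and Igfbp3 and Igfbp4, which rose, had 0. The letters also occur in sites of other factors of the Sp and Krüppel-like families, and a match describes the sequence only.

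**Figure D3:**
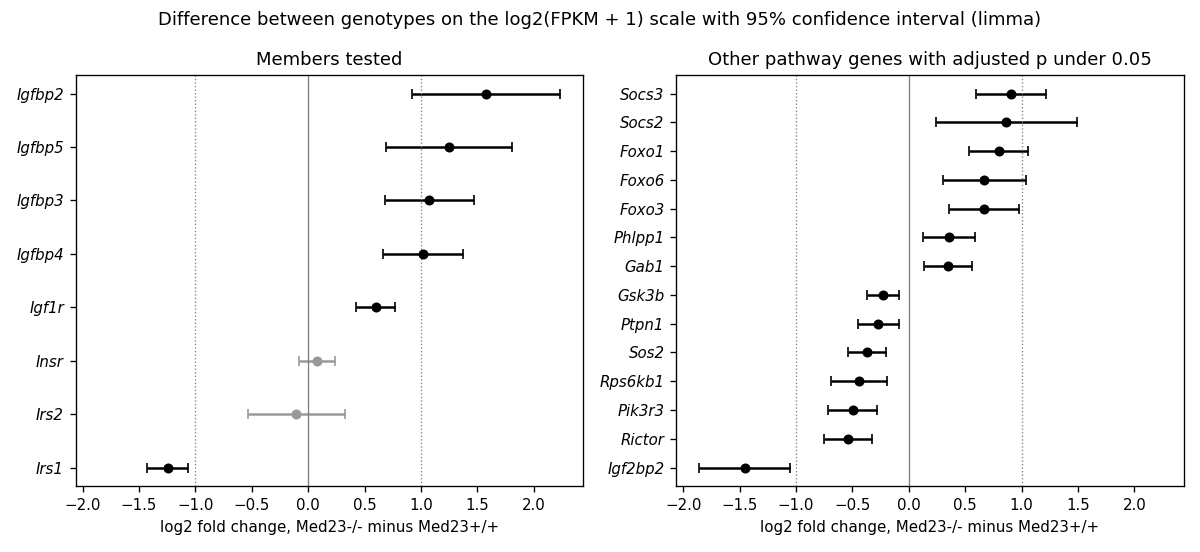
Log2 fold changes (x axis, Med23-/- minus Med23+/+ on the log2(FPKM + 1) scale) with 95% confidence intervals from limma for the 8 members tested (left, grey where the adjusted p was 0.05 or more) and for the 14 other pathway genes that passed (right), with dotted lines at a fold change of 2. Irs1 lies at -1.25 and Igfbp2 at 1.57, and of the other pathway genes Igf2bp2 lies beyond a dotted line, at -1.45, to which Foxo1, Foxo6, Socs2 and Socs3 are added with a pseudocount of 0.1.

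Among the members, Irs2, Irs1 and Insr had the highest levels in Med23+/+ iOLs, at means of 36.3, 23.4 and 18.1 FPKM, and their library ranges did not overlap. Igf1r, Igfbp2 and Igfbp3 followed at 9.83, 8.79 and 8.29 FPKM and did not differ beyond their spread. In Med23-/- iOLs the order was Irs2, Igfbp2, Insr, Igfbp3 and Igf1r, each overlapping the next, at means from 34.3 to 15.4 FPKM. Irs1 came after them at 9.28 FPKM, apart from Igf1r and within the spread of Igfbp5 at 8.75 FPKM. The ratio of summed binding protein to summed receptor FPKM was 0.821 ± 0.208 in Med23+/+ iOLs, against 1.80 ± 0.508 with Med23 deleted (SD, n = 4 each), with no overlap.

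Further genes of the pathway were taken from lists of 64 genes, of which 51 were tested. By adjusted p, 7 rose (13.7%, against 15.9% of all genes tested) and 7 fell (13.7%, against 14.1%). In this main fit the shares were no larger than those of all genes, and the median log2 fold change was 0.03. Over the alternatives 4 to 10 rose and 5 to 8 fell. The 10 were found under quantile normalization, where 1766 of all genes tested rose. With the fold change limit, 0 were higher in the main fit and 1, Igf2bp2, was lower. The count of 0 rests on the pseudocount of 1, since with 0.1 in its place Foxo1, Foxo6, Socs2 and Socs3 passed both limits (log2 fold changes of 1.22, 1.02, 1.25 and 1.10), while the members past both limits stayed 4 higher and 1 lower in number. The other secreted and receptor components showed no gene that passed, with 0 of 2 tested among the other binding proteins and receptors and 0 of 2 among the proteases and their inhibitors. The scavenging receptor gene Igf2r averaged 12.03 ± 0.746 FPKM in Med23+/+ iOLs, against 11.1 ± 0.784 FPKM with Med23 deleted (SD, n = 4 each, adjusted p = 0.344). Pappa, the gene for the protease that cleaves Igfbp4 protein, was too low for the test. It had 0.860, 0.710, 0.895 and 0.879 FPKM in Med23+/+ and 0.281, 0.412, 0.404 and 0.390 FPKM in Med23-/- libraries, with no overlap (two-sided exact permutation test, p = 0.0286).

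Igf2bp2, which encodes a protein that binds Igf2 and other mRNAs, had 7.55, 9.68, 6.66 and 6.58 FPKM in Med23+/+ and 2.88, 2.78, 1.42 and 1.66 FPKM in Med23-/- libraries. Each Med23-/- library was below all Med23+/+ libraries (log2 fold change -1.45, standard error 0.18, adjusted p = 0.000406). Its relative Igf2bp3 overlapped between the genotypes (log2 fold change 0.21, adjusted p = 0.673).

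Of the 6 FoxO and Gsk3 genes, 3 rose and 1 fell, where 15.9% of all genes tested rose and 14.1% fell. Lists this small were not tested as sets, and the same shares apply to the counts of the lists that follow. FoxO factors are transcription factors, and AKT keeps the products of Foxo1 and Foxo3 out of the nucleus. Foxo1 rose from 1.04 ± 0.111 to 2.56 ± 0.359 FPKM and Foxo3 from 13.1 ± 2.10 to 21.3 ± 3.46 FPKM (SD, n = 4 each), with log2 fold changes of 0.80 (adjusted p = 0.000966) and 0.67 (adjusted p = 0.00611). Foxo6 rose by 0.67 on the log2 scale (adjusted p = 0.0137), and Foxo4 did not pass (adjusted p = 0.323). Gsk3b, a kinase gene, fell by 0.23 (adjusted p = 0.0236), but under quantile normalization its log2 fold change was -0.12 and did not pass (adjusted p = 0.211). Among the Socs genes, whose products restrain cytokine and growth factor receptors, Socs3 rose from 2.81 ± 0.360 to 6.22 ± 1.25 FPKM (SD, n = 4 each, log2 fold change 0.91, adjusted p = 0.00119). Socs2 passed by less, with a log2 fold change of 0.86 (adjusted p = 0.0418), a call lost under 8 of 15 alternatives, and its genotypes overlapped.

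Of the other genes for receptor adaptors and proteins that act with them, 1 of 10 tested rose (Gab1, log2 fold change 0.35, adjusted p = 0.0206). Another 1, Sos2, which does not encode an adaptor itself, fell (-0.37, adjusted p = 0.00571). Of 11 genes of PI3 kinase and Akt, the regulatory subunit gene Pik3r3 fell by 0.50 (adjusted p = 0.00446), the phosphatase gene Phlpp1 rose by 0.36 (adjusted p = 0.0271) and 9 did not pass, Akt1 and Akt2 among them. Of 12 genes of the mTOR complexes and their effectors, Rictor, a subunit of mTOR complex 2, fell by 0.54 (adjusted p = 0.00258) and the S6 kinase gene Rps6kb1 by 0.44 (adjusted p = 0.0156), while 10 did not pass. The tyrosine phosphatase gene Ptpn1 had a log2 fold change of -0.27 (adjusted p = 0.0345). That call was lost under 8 of 16 alternatives, among them quantile normalization (adjusted p = 0.0568) and 6 of the 8 fits without a library.

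**Figure D4:**
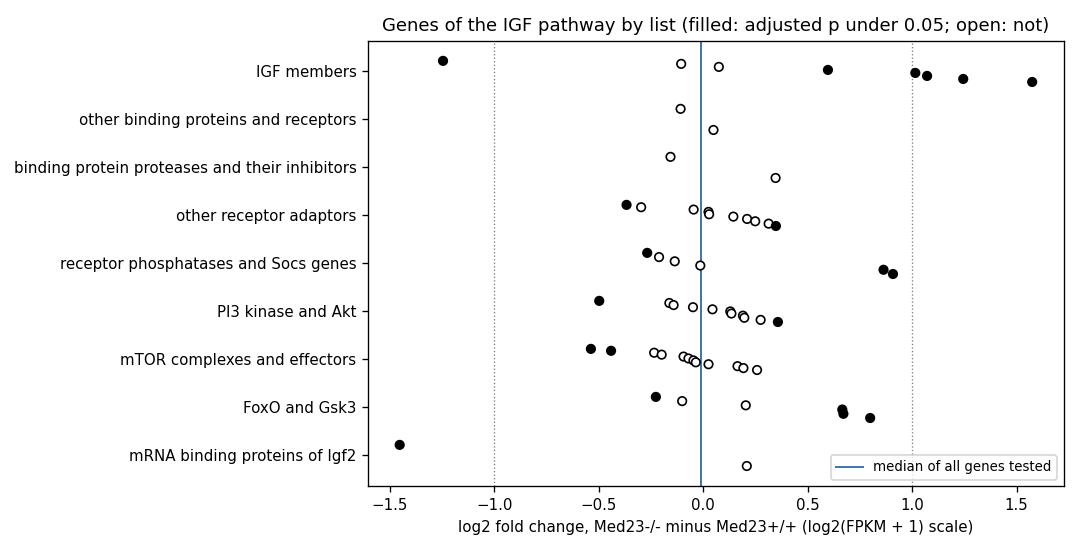
Log2 fold change (x axis, Med23-/- minus Med23+/+) of each gene tested, by list (y axis), filled where the adjusted p was under 0.05, with the median of all genes tested as a line and dotted lines at a fold change of 2. Of the members, 5 passed beyond the dotted lines, and of the 51 other genes 1 did (Igf2bp2), or 5 with a pseudocount of 0.1.

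Genes with the levels most like each member were sought over the 8 libraries by Pearson correlation of log2(FPKM + 1), as a description. The libraries fall into 2 genotypes, which sets much of these values. Nearest to Igf1r were Mtss1 (r = 0.995), Tap1 and Foxo1, and nearest to Irs1 were Cdv3 (r = 0.997), Ppap2c and Etv6. The nearest to Igfbp2 were Shtn1, Tgfb2 and Dusp1 and to Igfbp3 Lmnb1, Spry4 and Hist1h2af. For Igfbp4 they were Akna, 4930427A07Rik and Cntrob, and for Igfbp5 Col4a2, Rgs3 and Nsg2, with r between 0.985 and 0.996 for these 4 binding protein genes.

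Markers of the lineage were present, with summed FPKM of the 9 lineage genes from 2136 to 2418 in Med23+/+ and from 1633 to 2172 in Med23-/- libraries. Within that list the precursor genes Pdgfra and Cspg4 rose and 5 genes fell, Mbp and Cnp among them. Of all genes tested, 15.9% rose and 14.1% fell. Lineage markers thus moved with the genotype, as the members did. In bulk libraries, fewer cells of a type and less RNA per cell cannot be told apart. All 6 neuron markers rose, where 15.9% of all genes tested rose. Their sums were 192 to 214 FPKM in Med23+/+ and 273 to 339 FPKM in Med23-/- libraries, beside the rise of the binding protein genes and Igf1r. Map2, with a mean of 161 FPKM in Med23+/+, made up most of these sums and rose 1.25 times in mean FPKM. The other neuron markers rose between 1.91 (Tubb3) and 3.27 times (Syt1). Of 8 astrocyte markers, 4 fell, where 14.1% of all genes tested fell, and 0 rose (sums of 229 to 292 and of 101 to 149 FPKM). Without S100b, which had the highest level of them in Med23+/+, the sums were 119 to 169 and 79.7 to 125 FPKM and overlapped. Of 6 fibroblast and meningeal markers, the 3 tested did not pass. The sum of all 6 was 13.0, 5.94, 1.35 and 1.51 FPKM in Med23+/+ and 20.2, 13.3, 8.73 and 3.77 FPKM in Med23-/- libraries. Replicate 1 was thus the highest in both genotypes, as for Igfbp5. All 8 microglia markers had means under 1 FPKM, with sums of 1.06 to 2.01 and of 1.71 to 2.37 FPKM, as had 5 of 6 endothelial and 5 of 6 pericyte markers. Of the endothelial list, Kdr alone passed and was higher (adjusted p = 0.0398), with list sums of 0.509 to 1.19 and of 1.17 to 2.97 FPKM. The pericyte sums were 0.911 to 1.33 and 1.06 to 3.07 FPKM. The part of these cell types in the values above was not tested.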

How the data were processed

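RNA-seq was analysed from 8 libraries, 4 per genotype, grouped by the genotype in the labels. After trimming (Cutadapt), the authors ran Tophat2 with its defaults against mm10, and they deposited FPKM values made by cuffdiff with -b (fragment bias correction) and -u (weighting of reads that map to several places). Versions, annotation, normalization option and strand setting were not given in the sources used here, so reads from overlapping genes on opposite strands (at Igf1, Igf2, Insr, Irs1 and Irs2) cannot be told apart. The deposited table also holds the authors' fold changes, p-values and genotype means, which were not used. No library column was left out (0).

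Depth per library is unknown. The FPKM worth of 1 read, estimated from the commonest ratio of values under 0.15 FPKM, was 0.737 to 1 times that in Med23+/+ replicate 1, and the genotypes overlapped. Between 15941 and 16363 genes were above 0 in Med23+/+ and between 16408 and 16469 in Med23-/- libraries, without overlap. The unknown number of reads limits the precision of low values, for which no counting interval can be given.

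The genotypes were compared on log2(FPKM + 1) without further scaling, over genes averaging 1 FPKM or more, by moderated linear models (limma 3.58.1, R 4.3.3, with a variance trend) and Benjamini-Hochberg adjustment. A gene passed at adjusted p under 0.05, and the fold change limit was 2. Single values were compared by two-sided exact permutation tests. The comparison was tested on simulated data. Gene positions come from GENCODE vM21 (mm10) and promoters from RefSeq (GRCm38.p6), 250 bases before the start, the bases after it being left out. Python 3.11.15, pandas 2.3.3 and matplotlib 3.10.9 were used.

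The members and lists were chosen with earlier results of these data known. Named were the 10 members, Med23, the 3 genes most alike in level to each member that passed, other pathway genes that passed (at most 12 per direction) and defining cell type markers. Other genes named were Igf2r, Igf2bp3, Foxo4, Akt1, Akt2 and Pappa, chosen after their values were seen. Some items are not reported here. Sums and shares of members were also chosen after the values were seen and were not tested. Alternatives were a pseudocount of 0.1, 2 other filters, 2 scalings, no variance trend, a replicate block, a covariate that separates replicates 1 and 2 from the others, and fits without each library in turn.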

Additional observations from a re-analysis of the deposited data

Results flagged for a closer look

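Of 22 sets of 4 libraries (10 members and Med23 in each genotype), 2 held a library far from the other 3 by Dixon's ratio, and chance flags about 1 in 20 such sets. Igfbp3 had 10.5 FPKM in Med23+/+ replicate 4, where the other Med23+/+ libraries had 7.43 to 7.78 FPKM (ratio 0.882). Igfbp4 had 1.65 FPKM in Med23+/+ replicate 3, where the others had 2.55 to 2.71 FPKM (ratio 0.845). Both genes still passed by adjusted p when that library was left out.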

How the results depend on the processing

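Igf1r, Irs1 and the 4 binding protein genes kept their direction and an adjusted p under 0.05 under each alternative that tested them. Igfbp4 was not tested at a mean of at least 5 FPKM. The number of members higher past the fold change limit was 4 and ran from 2 to 4 when a library was left out, the 2 being without Med23-/- replicate 4. Under quantile normalization it was 3, with Igfbp4 at 0.87. The log2 fold change of Irs2 changed sign without Med23-/- replicate 3 (0.029, in a range from -0.23 to 0.029 over the libraries left out), as did that of Igf1 without Med23+/+ replicate 3 (-0.017) and without Med23-/- replicate 3 (-0.0098, range -0.017 to 0.049), and none of these passed a test. Among all genes, 654 in place of 367 were higher past both limits with a pseudocount of 0.1, and 1281 in place of 1957 were higher by adjusted p among genes of at least 5 FPKM, where fewer genes were tested. Igf2 reached the smallest exact permutation p, 0.0286, without Med23+/+ replicate 2. Among the other pathway genes, 7 rose by adjusted p, with 4 to 7 when a library was left out (4 without Med23+/+ replicate 2). There were 4 among genes of at least 5 FPKM, 9 with the covariate for replicates 1 and 2, and 10 under quantile normalization. Past both limits, 0 were higher, with 0 to 1 when a library was left out and 4 with a pseudocount of 0.1, and 1 was lower, or 0 among genes of at least 5 FPKM, where Igf2bp2 was not tested. These counts were added after seeing the data. Ptpn1 and Socs2 each lost significance under 8 alternatives, Phlpp1 under 4, Gsk3b under 3 and Gab1 under 2.

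Deviations from the genotype mean correlated between -0.10 and 0.16 for same-numbered libraries, so these correlations do not show a pairing by number. Med23+/+ replicate 1 correlated at 0.13 and 0.16 with Med23-/- replicates 1 and 2, and at -0.14 and -0.13 with replicates 3 and 4. Med23+/+ replicate 4 had the reverse signs, and Med23+/+ replicates 2 and 3 had mixed signs. With the covariate for replicates 1 and 2, 1849 genes were lower and 2094 higher by adjusted p. With a replicate block, 1835 genes were lower and 2085 higher by adjusted p, and 5 members higher and 1 lower, while Ptpn1 no longer passed (adjusted p = 0.0514). Low FPKM limits what can be said of Igf1 and Igf2.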

Other observations

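Some genes of the pathway separated replicates 1 and 2 from replicates 3 and 4 in both genotypes. Igf2bp3, which encodes an RNA binding protein of fetal tissues, had 5.86 and 7.13 FPKM in Med23+/+ replicates 1 and 2 against 2.88 and 3.09 FPKM in replicates 3 and 4. In Med23-/- iOLs it had 7.47 and 8.48 FPKM against 2.92 and 4.02 FPKM. Igfbpl1, a gene related to the IGF binding proteins, had 1.43, 0.731, 0.184 and 0.308 FPKM in Med23+/+ and 2.21, 1.59, 0.430 and 0.516 FPKM in Med23-/- libraries. The adaptor gene Irs4 was between 0 and 0.0428 FPKM in Med23+/+ and between 0.142 and 0.185 FPKM in Med23-/- libraries, below the level tested. These genes were chosen after their values were seen.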
